A study of Homo sapiens with 9 samples.

Results

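The transcriptome of MHCC97H cells that carried a control short hairpin RNA (shCont) was described from 3 of the 9 libraries of the series, shCont replicates 1, 2 and 3. These libraries were chosen by their label alone, and all 60683 genes listed for them were read. MHCC97H is an established line of human hepatocellular carcinoma (HCC) known for frequent metastasis, which the study received from a Shanghai liver cancer institute and grew in DMEM with serum. Its genotype is labelled WT, its tissue liver and its cell type hepatocellular carcinoma. The other 6 libraries carry hairpins against the ribosomal protein RPL6 and were not used, so everything below describes the baseline against which the study's knockdown was set. Hairpins were delivered by lentivirus, so these cells are a transduced culture and not the untouched parental line. Whether the 3 libraries came from separate cultures is not stated, so their spread may be technical.

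Hepatocytes make most of the proteins of blood plasma and run the urea cycle, gluconeogenesis, bile acid synthesis and drug oxidation, under a set of transcription factors that includes HNF4A, the FOXA proteins and the CEBP proteins. Liver cancer cells keep this programme to very different degrees, and may add fetal liver genes such as AFP, genes of bile duct cells such as KRT7 and KRT19, or genes of mesenchymal cells such as VIM and CDH2. The last of these accompany the epithelial-mesenchymal transition (EMT), in which cells lose E-cadherin (CDH1) and gain motility.

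Levels are given as FPKM, fragments per kilobase of gene length scaled to the library total, as the authors deposited them. The gene length behind a value, worked out from its counts and FPKM, was at the median equal to the sum of a gene's distinct exons in GENCODE release 29, a sum that counts overlapping exons of different transcripts more than once. For 11707 protein-coding genes it was a median of 1.63 times the length of the merged exons, with 2.96 times at the 95th percentile, and for 1289 of them (11.01%) it exceeded the whole span of the gene. Genes with many annotated transcripts therefore stand too low on the FPKM scale, and comparisons of level between genes are approximate. Ratios between libraries for 1 gene do not depend on the length. Levels per merged exon length (counts per kilobase of merged exons, scaled to the library total), an alternative added after the data had been seen, are given beside some of the comparisons, and other orders between genes of similar level may change with the length too. Gene counts summed to 13677400, 15146181 and 15132355 in replicates 1, 2 and 3. A gene is called expressed here at 1 FPKM or more in every library and absent at 0.1 FPKM or less in every library. Of 19970 protein-coding genes, 9050 (45.3%) were expressed by this rule, 6320 (31.6%) were at 0.1 FPKM or less, and 4600 lay between. Per merged exon length 10113 (50.6%) were expressed. The shares of gene lists below stand beside the 45.3% and the 31.6%, and a share near them says nothing particular about a list. The absent class contains 4024 genes (20.2%) with 0 counts in all 3 libraries, which allows up to 0.219, 0.198 and 0.198 CPM (counts scaled to the library total) in replicates 1, 2 and 3 (3 counts of the total, counting error only). By mean FPKM, 6826 protein-coding genes fell between 1 and 10, 2731 between 10 and 100, and 205 at 100 or above. Over all gene types 10626 genes were expressed and 31795 had no count.

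Mitochondrially encoded genes were the most abundant. The 13 mitochondrial protein genes summed to 65554, 66346 and 72391 FPKM in replicates 1, 2 and 3 and took 6.08% ± 0.371 of all counts (mean ± SD, n = 3). MT-CO1, a catalytic subunit of cytochrome c oxidase, led the table at 12839, 12862 and 14173 FPKM. The 10 genes with most counts took 6.86%, 6.75% and 7.44% of the counts, and the 100 with most took 18.8%, 18.8% and 21.4%.

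Among nuclear protein-coding genes, actin regulators, ferritins and S100 proteins led. TMSB10, a small peptide that binds actin monomers, stood at 2558, 2617 and 3878 FPKM, followed by the ferritin light chain FTL at 2625, 2411 and 3166 FPKM. The calcium-binding protein S100A11 had 1112, 999 and 1427 FPKM, its relatives S100A6 526, 636 and 765 FPKM and S100P 489, 455 and 684 FPKM. The remaining genes of the 20 most abundant had means between 467 and 784 FPKM. They comprised the ferritin heavy chain FTH1, the cytoskeletal genes PFN1 and ACTB, the glycolytic enzyme GAPDH, the chaperone HSP90AB1, the ribosomal proteins RPL35 and RPS12, the lysosomal precursor PSAP and the mitochondrial protein CHCHD2. They also held the phosphatase DUSP1, the histone H2BC12, the peroxidase PRDX1, the amino acid transporter SLC7A5, the urea cycle enzyme ASS1 and the ubiquitin-like interferon-stimulated protein ISG15. ISG15 was the least even of the 20, with 275, 266 and 1347 FPKM, so that replicate 3 held 5.06 times the lowest library. Per merged exon length 14 of the 20 remained, and TUBA1B, FOLR1, YBX1, TXN, RPL8 and S100A4 took the places of S100P, DUSP1, H2BC12, SLC7A5, RPS12 and CHCHD2. RPL6, which the hairpins of the other groups target, stood at 71.6, 73.98 and 61.2 FPKM in these control cells.

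Several processed pseudogenes were listed above their parent genes. Processed pseudogenes, which are intron-less copies of messenger RNAs, took 3.36% ± 0.284 of the counts (SD, n = 3). RPS28P7, a copy of the ribosomal protein gene RPS28, was listed at 2078, 2029 and 2753 FPKM, against 1.18, 1.400 and 1.35 FPKM for RPS28 itself, and held 76.8 to 108 times its counts. EEF1A1P5, a copy of the elongation factor gene EEF1A1, had 2148, 2233 and 1688 FPKM, against 177, 208 and 162 FPKM for EEF1A1, but only 1.22 to 1.42 times its counts. RPL39P3 had a mean of 2997 FPKM, beside 26.2 FPKM for RPL39, and 5.91 to 10.3 times its counts. PPIAP22 had a mean of 2468 FPKM beside 185 FPKM for PPIA, yet fewer counts than PPIA in every library (0.883 to 0.91 times). For PPIAP22 the gap in FPKM thus goes with the shorter length of the copy. RPS28P7, EEF1A1P5 and RPL39P3 also held more counts than their parent genes. Per merged exon length PPIAP22 still stood at 7.86 to 8.10 times PPIA, and EEF1A1P5 at 5.23 to 6.10 times EEF1A1. Among 77 ribosomal protein genes 76 were expressed, yet 7 had a mean below 10 FPKM, RPS9 being the lowest at 0.132, 0.0767 and 0.299 FPKM. How reads were divided between such copies was not tested, and the levels of ribosomal protein genes and of other genes with many processed copies, among them GAPDH, FTH1, PPIA and ACTB, are uncertain.

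A listed 0 does not by itself show that a gene is silent. In the interval of chromosome 6 from 29 to 34 Mb (GRCh38), which holds the major histocompatibility complex, 102 of 182 protein-coding genes (56.0%) had no count, against 19.8% of all other protein-coding genes. The beta-tubulin gene TUBB, the casein kinase subunit CSNK2B, the RNA-processing subunit LSM2 and the chloride channel CLIC1, which most dividing cells use, lie there and were listed at 0 in all 3 libraries. To gauge this elsewhere, 94 genes of 8 core complexes (RNA polymerase II, proteasome, chaperonin, LSM ring, EIF3, aminoacyl-tRNA synthetases, MCM helicase, and casein kinase 2 with tubulins) were read, a list drawn up after the zeros had been seen. Of these, 87 were expressed. The 7 others were TUBB, CSNK2B, LSM2 and the valyl-tRNA synthetase VARS1 in that interval, and PSMC4, EIF3K and CSNK2A1 outside it. CSNK2A1 held 1489 counts in all, and the length behind its FPKM was 78881 bases, against 29523 bases of merged exons. What set these low values was not tested. Members of the lists below that lie in the interval are marked as such where they are named. The counts of the lists include all such members, among them 2 plasma protein genes, 1 receptor tyrosine kinase and 1 pluripotency or neural factor.

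The plasma protein programme of hepatocytes was largely absent. Of 60 plasma protein genes, 8 (13.3%) were expressed and 44 (73.3%) were at 0.1 FPKM or less, beside 45.3% and 31.6% of all protein-coding genes, and the median member stood at 0.0101 FPKM, beside 0.912 FPKM over all protein-coding genes. Albumin (ALB, chr4:73397114-73421482, GRCh38), the most abundant protein of plasma, had no count in any library. No count was found either for 22 further members. These include the carriers TTR and AHSG, the apolipoproteins APOA2, APOC2 and APOH, the clotting factors F2, F5, F7, F9 and F11, the fibrinogen chain FGB, plasminogen (PLG), the acute-phase proteins CRP, ORM1, ORM2 and SERPINA3, and the iron hormone HAMP. APOM was also at 0 but lies in the chromosome 6 interval. SERPINA1 had 2 counts in total, APOA1 2 and APOB 3.

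The 8 expressed plasma protein genes were led by complement C3 at 67.7, 71.9 and 67.8 FPKM, the central protein of the complement cascade. RBP4, the plasma carrier of retinol, had 24.1, 28.95 and 37.5 FPKM, and the adhesive glycoprotein VTN 13.3, 12.2 and 25.99 FPKM. The acute-phase protein SAA1 stood at 2.33, 2.41 and 12.1 FPKM, with replicate 3 well above the others; SAA1 shares most of its sequence with SAA2, so its level is uncertain. PROS1, F12 and AMBP had means between 1.12 and 3.64 FPKM. C3 differed little between libraries, whereas RBP4, VTN, SAA1 and F12 were highest in replicate 3, as were 40.7% of all expressed protein-coding genes.

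Few hepatocyte metabolism genes were expressed, with ASS1 and CPS1 as the most abundant. Of 52 enzymes, 6 (11.5%) were expressed and 35 (67.3%) were at 0.1 FPKM or less, beside 45.3% and 31.6% of all protein-coding genes. ASS1, which joins citrulline to aspartate, was among the 20 most abundant nuclear genes at 441, 437 and 591 FPKM. CPS1, the mitochondrial enzyme that feeds ammonia into the cycle, had 58.4, 63.7 and 36.4 FPKM, and ASL, which splits argininosuccinate, 5.51, 5.201 and 6.503 FPKM. The other urea cycle enzymes of the list, OTC and ARG1, had no count. The glycogen phosphorylase PYGL had 19.8, 19.4 and 16.2 FPKM, the glutamine synthetase GLUL 2.34, 3.26 and 3.25 FPKM and the tyrosine-degrading enzyme FAH 1.41, 1.66 and 2.103 FPKM. The enzymes at 0 counts included the alcohol dehydrogenases ADH1A, ADH1B, ADH1C and ADH4, the cytochromes CYP1A2, CYP2C8, CYP2C19 and CYP8B1, and G6PC, GYS2, TDO2, HGD, BHMT, HAO1, UGT2B4, UGT2B7 and the fatty acid carrier FABP1.

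Of 20 transporters and surface receptors of hepatocytes, 6 were expressed and 10 were at 0.1 FPKM or less. The HDL receptor SCARB1 had 11.9, 13.3 and 16.9 FPKM and the lipoprotein receptor LRP1 5.45, 6.15 and 9.12 FPKM. The canalicular export pump ABCC2 had 22.1, 21.99 and 10.04 FPKM and the transferrin receptor TFR2 3.37, 3.12 and 3.67 FPKM. The bile salt importer SLC10A1, the bile salt export pump ABCB11, the glucose transporter SLC2A2, the anion transporter SLC22A7 and the asialoglycoprotein receptor subunit ASGR2 had no count.

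Of 24 liver transcription factors, 10 (41.7%) were expressed, near the 45.3% of all protein-coding genes. CEBPB had 141, 142 and 212 FPKM and CEBPA 15.4, 16.2 and 24.4 FPKM, both leucine zipper proteins that bind many liver promoters. TBX3 had 9.03, 9.16 and 9.78 FPKM, ATF5 7.19, 6.17 and 7.21 FPKM, and FOXA1, GATA6, HHEX and ONECUT2 had means between 2.73 and 3.47 FPKM. HNF4A, a nuclear receptor at the centre of the hepatocyte network, stood at 0.504, 0.4996 and 0.637 FPKM. FOXA2, ONECUT1 and NR0B2 had no count, and the bile acid and xenobiotic receptors NR1H4 and NR1I2 had 2 and 3 counts in total.

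Fetal liver genes were mixed. Of 22 oncofetal genes, 7 (31.8%) were expressed and 9 (40.9%) were at 0.1 FPKM or less, beside 45.3% and 31.6% of all protein-coding genes. AFP, the fetal counterpart of albumin and a serum marker of HCC, had 0.0171, 0 and 0.06195 FPKM, and the HCC surface marker GPC3 0, 0 and 0.0323 FPKM. The imprinted RNA H19 had 19.98, 21.8 and 68.8 FPKM, 3.44 times higher in the highest than in the lowest library, while its neighbour IGF2 had 0.0209, 0.03304 and 0.0331 FPKM. The RNA-binding proteins IGF2BP1 and IGF2BP3, which are silent in most adult tissues, had 11.5, 11.05 and 8.895 FPKM and 6.73, 6.46 and 3.75 FPKM. The Golgi protein GOLM1 had 38.4, 37.3 and 27.6 FPKM, the tetraspanin TSPAN8 11.3, 12.8 and 7.29 FPKM and the trypsin inhibitor SPINK1 8.02, 7.04 and 11.7 FPKM. DLK1, LIN28B, PEG3 and REG3A had no count.

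Genes of bile duct and progenitor cells were at about the level of the transcriptome as a whole, with 10 of 21 (47.6%) expressed beside 45.3% of all protein-coding genes and none at 0 counts. The keratin KRT7, a bile duct marker, reached 286, 298 and 529 FPKM, whereas the other classical bile duct keratin, KRT19, had 0.2903, 0.293 and 0.432 FPKM, so that KRT7 exceeded KRT19 by 985, 1018 and 1223 times in replicates 1, 2 and 3. ICAM1 had 24.4, 24.7 and 29.1 FPKM, CD24 11.5, 11.8 and 13.5 FPKM and SOX4 11.2, 12.6 and 7.44 FPKM. EPCAM stood at 0.7302, 0.643 and 0.563 FPKM, SOX9 at 0.428, 0.773 and 0.521 FPKM and PROM1 at 0.0419, 0.0142 and 0.0142 FPKM. The defining markers of hepatocytes (ALB, TTR, APOA1, SERPINA1, HNF4A) were thus absent or low in cells labelled hepatocellular carcinoma, and the line is called here by its label.

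**Figure D1:**
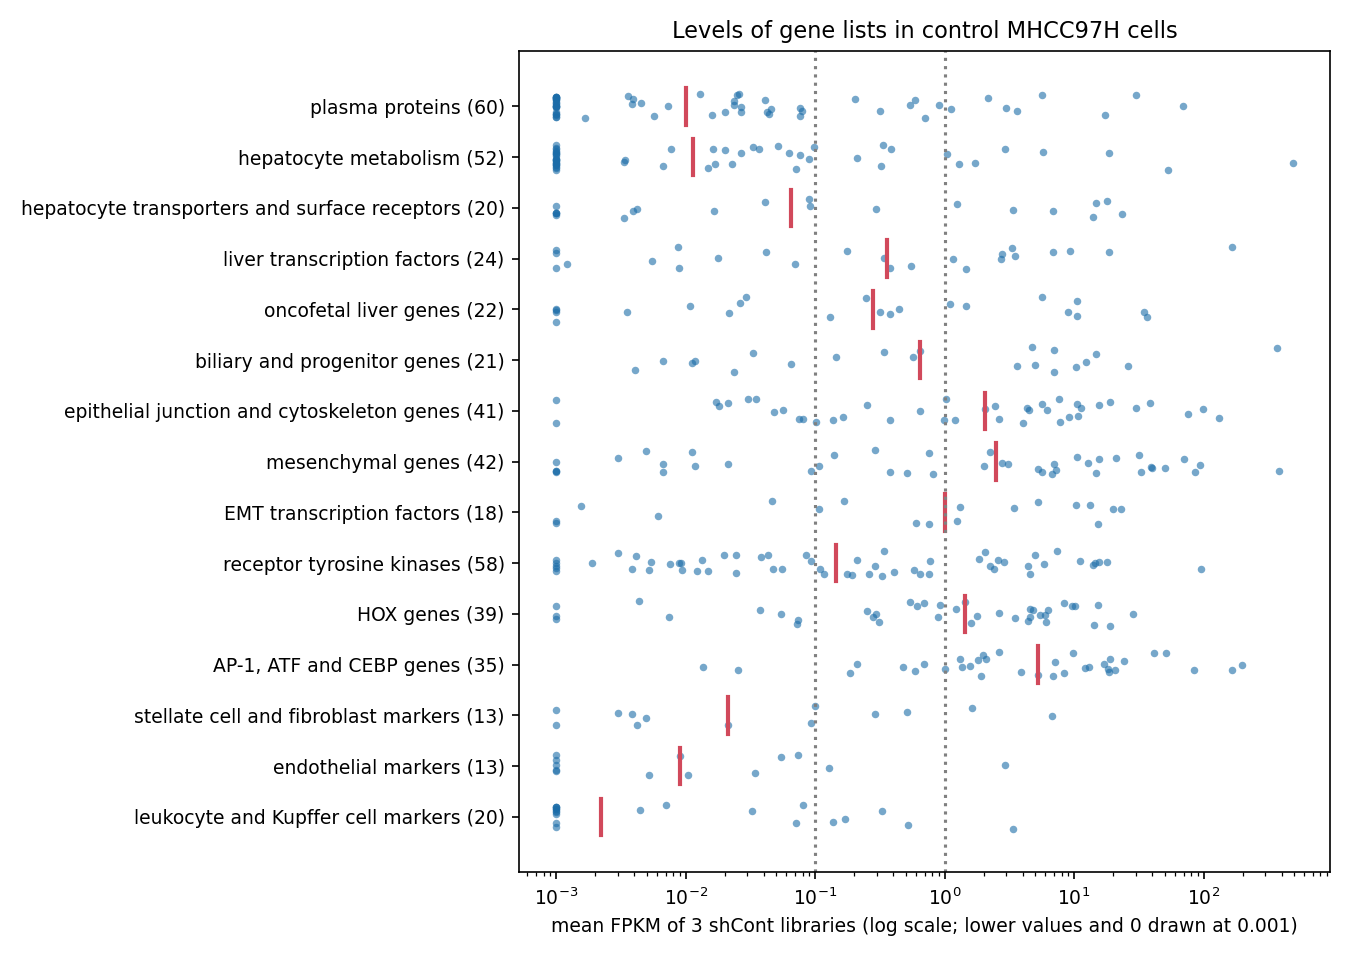
Mean FPKM over the 3 shCont libraries (horizontal log axis) of the members of 15 gene lists, 1 point per gene, with the number of members in parentheses, a red bar at the median and dotted lines at 0.1 and 1 FPKM. The medians of the plasma protein and hepatocyte metabolism lists sit near 0.01 FPKM, and those of the epithelial and mesenchymal lists at 2.04 and 2.52 FPKM.

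The promoters of the absent hepatocyte genes were read for a TATA box sequence and for CG dinucleotides. Promoter sequence was taken from RefSeq (GRCh38.p14) as 250 bases before to 50 after the annotated start, and was used for 15130 of 19943 nuclear protein-coding symbols. The letters TATAAA, the core of the TATA box at which the TATA-binding protein assembles, were searched on the gene's own strand in the 30 bases from 40 to 11 before the start. They were found in 15 of 57 plasma protein and hepatocyte enzyme genes at 0.1 FPKM or less (26.3%), in 0 of 11 expressed members of the same lists, in 7.23% of all 4524 absent protein-coding genes with a promoter, in 1.75% of 7297 expressed ones and in 3.71% of all 15130. The absent plasma protein genes alone held them in 6 of 35 (17.1%). Absent members had a median of 3 CG dinucleotides in the 300-base window, against 18 in the 11 expressed members, 7 in all absent protein-coding genes and 22 over all genes, so that few CG dinucleotides were common to absent genes in general. The same letters also occur before abundant genes: they were present for 9.26% of 162 genes with a mean of 100 FPKM or more. The windows below show 4 absent liver genes with the motif, 2 expressed liver genes without it and 2 abundant genes with it. Capitals mark the motif, and each window runs 5′ to 3′ on the strand named.
CRP (chr1:159714600-159714629, minus strand): actgctttggaTATAAAtccaggcaggagg
FABP1 (chr2:88128073-88128102, minus strand): ggagcccccTATAAAacagcctacagtgga
CYP3A4 (chr7:99784195-99784224, minus strand): cttctctagcaTATAAAcaatccaacagcc
ARG1 (chr6:131573186-131573215, plus strand): ttcaacccaagTATAAAtggaaaaaaaaga
ASS1 (chr9:130444667-130444696, plus strand): cgcgggccagggccaggaaccgcgagccgc
CEBPB (chr20:50190543-50190572, plus strand): aggggcggtccgggggcggggtcgcaccgc
S100P (chr4:6693838-6693867, plus strand): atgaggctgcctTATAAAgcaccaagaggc
S100A4 (chr1:153545817-153545846, minus strand): tggctggggTATAAAtaggtcagacctctg
The first 4, from an acute-phase protein, a fatty acid carrier, a drug-oxidising cytochrome and arginase, had totals of 0, 0, 2 and 0 counts. ASS1 and CEBPB lie in GC-rich windows with 29 and 31 CG dinucleotides per 300 bases, and S100P and S100A4 carry the motif at means of 543 and 385 FPKM. CEBPB is a liver transcription factor and not one of the 11 expressed members. The 11 expressed members are too few for their 0 to be set against the 26.3%, since only 1.75% of all expressed genes held the motif. Single genes also differed from the rest of their group in motif or CG dinucleotides. CPS1 and RBP4, expressed at means of 52.8 and 30.2 FPKM without the motif, had only 3 and 7 CG dinucleotides. ALB and FGB, both at 0, lacked the exact letters TATAAA as well. Variants of the TATA box sequence were not searched. A match describes the letters and not a bound site, and the windows rest on 1 annotated start per gene.

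Of 41 epithelial junction and cytoskeleton genes 20 (48.8%) were expressed, and of 42 mesenchymal genes 23 (54.8%), both not far above the 45.3% of all protein-coding genes, with medians of 2.04 and 2.52 FPKM. In RNA of a whole culture, a low level in all cells and a high level in few cells cannot be told apart. On the epithelial side, plakoglobin (JUP), which links cadherins to the cytoskeleton, had 116, 123 and 154 FPKM. The paired keratins of simple epithelia, KRT8 and KRT18, had 79.8, 83.8 and 134 FPKM and 67.1, 70.1 and 91.96 FPKM. The desmosomal genes DSG2, PKP3 and DSP had means of 29.9, 15.6 and 11.3 FPKM, the epithelial factor ELF3 16.7, 17.2 and 22.6 FPKM and the keratin KRT80 33.8, 27.8 and 53.7 FPKM.

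The defining adherens junction gene of epithelia was nearly silent. CDH1 stood at 0.07202, 0.0929 and 0.0604 FPKM, from 47 counts in all 3 libraries together. The splicing regulator ESRP1 and the vesicle protein RAB25, which epithelial cells use, had no count, and GRHL2 and OVOL1, factors that maintain the epithelial state, had 7 and 13 counts in total. The tight junction gene OCLN had 0.0385, 0.0261 and 0.0261 FPKM. CLDN4, another tight junction gene, was listed at 6.41, 6.48 and 0.111 FPKM, far lower in replicate 3 than in the others, while CLDN1 had 10.9, 11.8 and 9.29 FPKM in the same libraries.

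On the mesenchymal side, S100A4, a calcium-binding protein of motile cells, had 373, 369 and 411 FPKM, a range of only 1.11 times. The membrane-cytoskeleton linker MSN had 93.2, 96.1 and 93.1 FPKM, the myosin light chain MYL9 63.7, 67.4 and 126 FPKM and the tropomyosin TPM2 57.2, 61.3 and 93.6 FPKM. Vimentin (VIM), the intermediate filament of mesenchymal cells, had 35.3, 36.99 and 46.8 FPKM, the collagen chain COL5A1 31.7, 33.4 and 52.7 FPKM and the secreted protein FSTL1 34.9, 31.1 and 33.3 FPKM. N-cadherin (CDH2) had 5.75, 5.48 and 5.75 FPKM, which was 79.8, 59.0 and 95.1 times the level of CDH1 in replicates 1, 2 and 3, and 42.6, 31.5 and 50.8 times per merged exon length. KRT8 exceeded VIM by 2.26, 2.27 and 2.87 times in the same libraries. Fibronectin (FN1) had 2.35, 2.51 and 4.35 FPKM, whereas SPARC had 0.103, 0.112 and 0.206 FPKM and POSTN, CDH11, COL6A3 and GREM1 had no count.

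Of 18 transcription factors linked to EMT, 8 (44.4%) were expressed, near the 45.3% of all protein-coding genes. The forkhead factors led, FOXC1 at 23.7, 27.4 and 18.2 FPKM, FOXQ1 at 14.9, 18.6 and 25.98 FPKM and FOXC2 at 12.8, 13.6 and 13.4 FPKM, with the homeobox factors SIX2 at 16.5, 15.3 and 13.8 FPKM and PRRX2 at 6.95, 5.36 and 18.6 FPKM. The zinc finger repressors of CDH1 stood lower. SNAI2 had 5.39, 4.76 and 5.62 FPKM, SNAI1 3.43, 2.87 and 3.99 FPKM, ZEB1 1.32, 0.607 and 0.353 FPKM and ZEB2 0.116, 0.1196 and 0.0857 FPKM. The order of SNAI2 above SNAI1 above ZEB2 held in every library, while ZEB1 and TWIST1, at 1.16, 0.978 and 1.62 FPKM, overlapped.

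**Figure D2:**
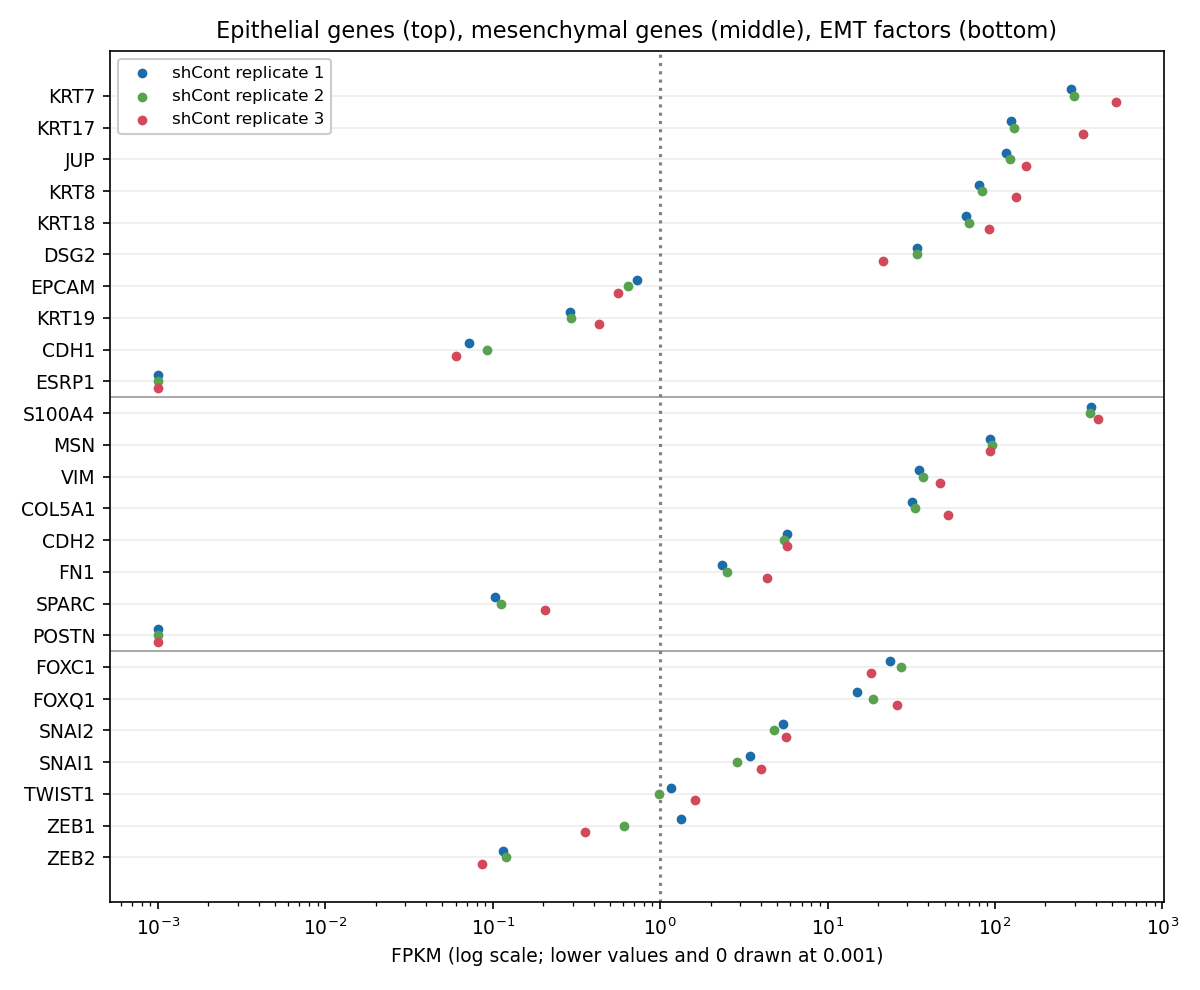
FPKM (horizontal log axis) of 10 epithelial genes, 8 mesenchymal genes and 7 EMT factors in each shCont library, 1 colour per replicate, with values under 0.001 drawn at 0.001. CDH1 lies at or below 0.0929 FPKM in every library while KRT7, JUP, KRT8 and KRT18 lie above 60, beside VIM and CDH2 above 1 FPKM.

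The keratin profile was broader than KRT8 and KRT18. Of 33 intermediate filament genes 17 (51.5%) were expressed, not far above the 45.3% of all protein-coding genes. KRT17, a keratin of basal and wounded epithelia, had 125, 130.4 and 335 FPKM, whereas the basal keratins KRT5 and KRT14 had 0, 0.00921 and 0.00921 FPKM and 0.0506, 0 and 0.252 FPKM. KRT17 has close pseudogene copies, so its level is uncertain. The neuronal filament INA had 22.04, 22.7 and 8.88 FPKM. KRT7, KRT17, KRT8, KRT18 and KRT80 were all highest in replicate 3, which was the highest library for 40.7% of all expressed protein-coding genes. The 20 keratins of the list summed to 639, 658 and 1203 FPKM in replicates 1, 2 and 3. All listed genes summed to 298552, 297639 and 335872 FPKM in the same libraries.

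Of 34 proteases and protease inhibitors linked to invasion, 21 (61.8%) were expressed, with inhibitors and lysosomal enzymes in the lead. The metalloprotease inhibitor TIMP1 had 127, 113 and 159 FPKM, and the cathepsins CTSD and CTSL 64.5, 87.9 and 101 FPKM and 59.95, 57.4 and 66.3 FPKM. The membrane-bound metalloproteases MMP15 and MMP14 had 17.9, 18.4 and 24.6 FPKM and 5.84, 6.901 and 12.1 FPKM, and the urokinase gene PLAU and its receptor PLAUR had means of 4.86 and 7.06 FPKM. The secreted gelatinases MMP2 and MMP9 stood at 0.436, 0.309 and 0.525 FPKM and 0.563, 0.509 and 0.679 FPKM, and MMP1, MMP3, MMP10, MMP11 and MMP16 had no count. TIMP2 was uneven at 13.7, 45.3 and 14.3 FPKM, with replicate 2 above the others.

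Receptor tyrosine kinases bind growth factors outside the cell and signal through phosphorylation inside it. Of 58 such genes 17 (29.3%) were expressed and 25 (43.1%) were at 0.1 FPKM or less. EPHA2, a receptor for membrane-bound ephrins, led at 84.8, 85.8 and 115 FPKM, and the lowest library of EPHA2 exceeded the highest of any other kinase of the list. AXL, the receptor for GAS6, had 11.7, 12.9 and 22.2 FPKM, the EGF receptor EGFR 15.7, 15.1 and 12.8 FPKM and the HGF receptor MET 16.2, 16.1 and 9.81 FPKM, and these overlapped between libraries. LMTK2 had 18.6, 20.4 and 14.5 FPKM and EPHB4 9.89, 10.8 and 12.4 FPKM. IGF1R, ERBB2, FGFR4 and INSR had means of 4.54, 2.87, 2.39 and 2.04 FPKM. The vascular receptors FLT1 and KDR, and FLT3, NTRK3 and EPHB1, had no count, and KIT had 3 counts in total.

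Of 36 growth factor ligands 14 (38.9%) were expressed. VEGFB had 14.3, 16.5 and 19.8 FPKM, the EPHA2 ligand EFNA1 9.98, 9.68 and 13.98 FPKM, PDGFA 11.4, 11.6 and 9.07 FPKM and FGF2 8.38, 8.17 and 7.998 FPKM. GAS6 had 6.05, 5.77 and 7.898 FPKM, so that messages for AXL and for its ligand were present in the same libraries. The EGFR ligands TGFA, AREG and HBEGF had 4.897, 4.18 and 3.09 FPKM, 3.001, 2.85 and 3.46 FPKM and 0.898, 1.22 and 1.26 FPKM. HGF, the ligand of MET, had no count, nor had IGF1, while the liver hormone FGF21 was also at 0. FGF19, which acts through FGFR4, had 0.161, 0.254 and 0.145 FPKM, and KLB, the co-receptor that this pairing needs, had 5 counts in total.

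**Figure D3:**
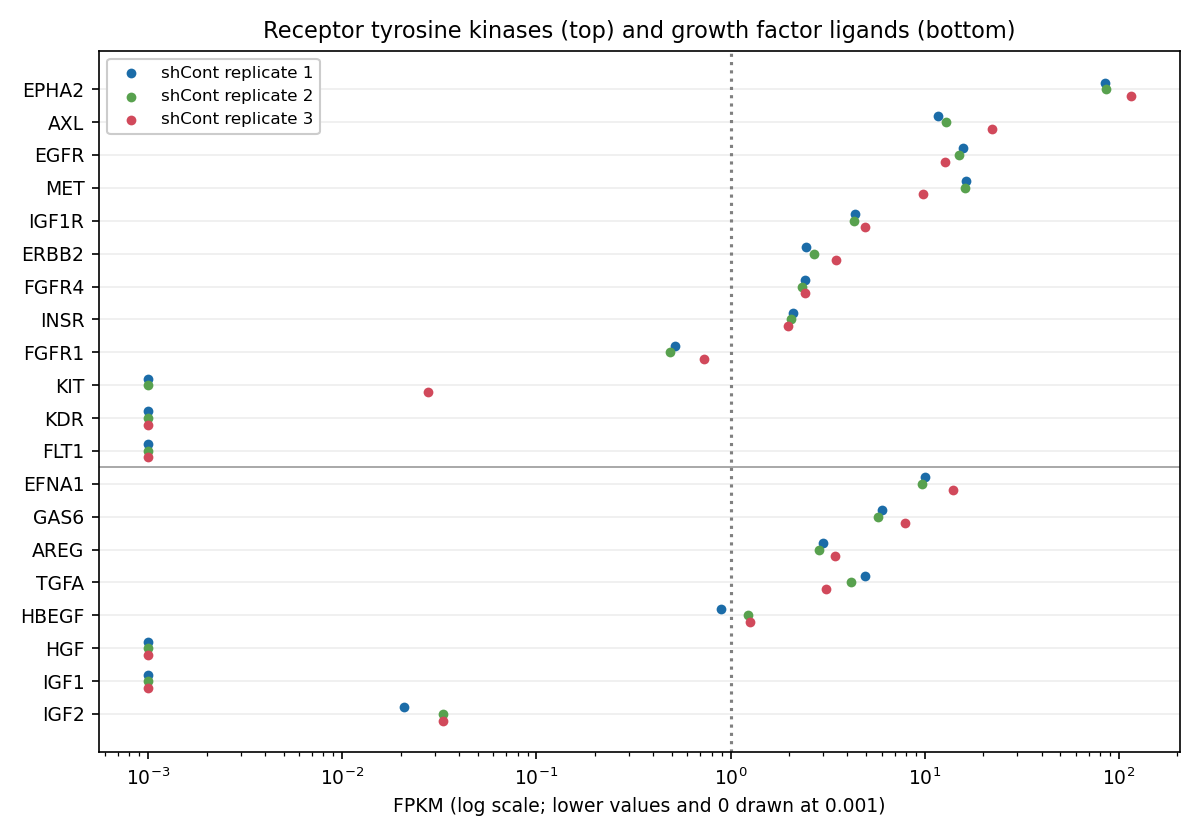
FPKM (horizontal log axis) of 12 receptor tyrosine kinases and 8 growth factor ligands in each shCont library, 1 colour per replicate, with values under 0.001 drawn at 0.001. EPHA2 lies apart from the rest at 84.8 to 115 FPKM, and HGF, IGF1, KDR and FLT1 are at 0 in every library.

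Other receptor families were expressed in part. Of 38 cytokine and death receptors 20 (52.6%) were expressed, beside 45.3% of all protein-coding genes. The list was led by the TWEAK receptor TNFRSF12A at 62.2, 43.7 and 78.2 FPKM. The oncostatin M receptor OSMR had 40.8, 42.1 and 28.7 FPKM, and its relative LIFR 17.7, 16.3 and 10.8 FPKM. The death receptors TNFRSF10B and TNFRSF10A for TRAIL had 25.9, 27.01 and 21.8 FPKM and 12.3, 13.8 and 8.59 FPKM. Of 14 TGF-beta family receptors 6 (42.9%) were expressed. Per merged exon length 9 (64.3%) were, beside 50.6% of all protein-coding genes on that scale. The co-receptor ENG had 11.97, 18.95 and 18.4 FPKM and the signalling pair TGFBR2 and TGFBR1 4.54, 5.38 and 3.58 FPKM and 3.43, 3.02 and 1.201 FPKM. Of 29 WNT, NOTCH and Hedgehog receptor genes 17 (58.6%) were expressed. FZD2 and LRP5, which together bind WNT proteins, had 19.3, 19.8 and 24.3 FPKM and 16.5, 17.8 and 25.4 FPKM, and NOTCH2 9.79, 10.4 and 8.48 FPKM. LGR4, the receptor for R-spondins, was uneven at 25.7, 26.1 and 5.95 FPKM. SMO and DLL1 had no count, and NOTCH4 was at 0 in the chromosome 6 interval. Of 30 chemokine and lipid mediator receptors 8 (26.7%) were expressed. ACKR3 and CXCR4, which both bind CXCL12, had 10.1, 10.5 and 12.9 FPKM and 6.72, 6.77 and 8.65 FPKM.

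Nuclear receptors are transcription factors that respond to small lipophilic ligands. Of 48 members 21 (43.8%) were expressed. The orphan receptor NR2F6 led at 75.1, 75.6 and 97.8 FPKM, its relatives NR2F2 and NR2F1 having 9.04, 9.497 and 7.08 FPKM and 7.39, 8.03 and 5.98 FPKM. The shared partner RXRA had 16.2, 16.9 and 13.2 FPKM, the regulator of mitochondrial genes ESRRA 13.4, 13.3 and 16.9 FPKM and PPARG 5.64, 5.71 and 6.03 FPKM. PPARA, which drives fatty acid oxidation in hepatocytes, stood at 0.533, 0.196 and 0.412 FPKM. The estrogen receptor ESR1 had a mean of 0.145 FPKM and the progesterone receptor PGR had no count. RXRB was at 0 but lies in the chromosome 6 interval.

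Of 35 AP-1, ATF and CEBP genes, many of which respond to stimuli, 24 (68.6%) were expressed, beside 45.3% of all protein-coding genes, with a median of 5.25 FPKM beside 0.912 FPKM. JUNB had 175, 176 and 245 FPKM, JUND 77.6, 82.6 and 93.6 FPKM, the small MAF protein MAFK 42.8, 41.2 and 69.2 FPKM and the stress factor ATF4 41.4, 40.97 and 41.9 FPKM. Of 33 ETS, TEAD and RUNX genes, with their cofactors, 23 (69.7%) were expressed, among them ELK1 at 19.5, 19.7 and 29.1 FPKM, TEAD3 at 12.1, 12.5 and 13.8 FPKM and the Hippo effector YAP1 at 12.1, 13.1 and 9.900 FPKM. Of 23 GATA and KLF genes 13 (56.5%) were expressed. KLF5, a factor of proliferating epithelia, had 41.2, 43.8 and 32.7 FPKM and GATA2 11.8, 12.04 and 14.2 FPKM. Of 19 SOX genes 5 (26.3%) were expressed, SOX4 being the highest. Of 21 factors of pluripotent, neural and other lineages 0 were expressed. Among them 11 had no count, including NANOG, the pancreatic factor PDX1 and the muscle factor MYOD1.

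HOX genes encode homeobox factors that set position along the body axis and lie in 4 clusters. Of 39 HOX genes 19 (48.7%) were expressed. The highest were HOXC13 at 25.9, 30.2 and 28.9 FPKM, HOXC10 at 20.3, 20.8 and 15.4 FPKM, HOXB7 at 14.7, 16.3 and 15.1 FPKM and HOXA11 at 14.6, 14.8 and 13.4 FPKM. Their order depended on the length used. Per merged exon length HOXC10 stood at 41.2, 42.2 and 31.3, above HOXC13 at 25.2, 29.4 and 28.1, and HOXA11 above HOXB7. Genes numbered 9 to 13, which act at the posterior end of the body, had a median of 4.55 FPKM with 10 of 16 expressed, and genes numbered 1 to 8 a median of 0.689 FPKM with 9 of 23 expressed. Per merged exon length these medians were 4.84 and 1.26, with 11 of 16 and 11 of 23 expressed. In the HOXD cluster only HOXD9 was expressed, at 3.83, 3.71 and 6.15 FPKM, against 5 of 11 genes in HOXA, 7 of 10 in HOXB and 6 of 9 in HOXC. HOXB13 stood at 5.32, 6.02 and 6.65 FPKM.

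**Figure D4:**
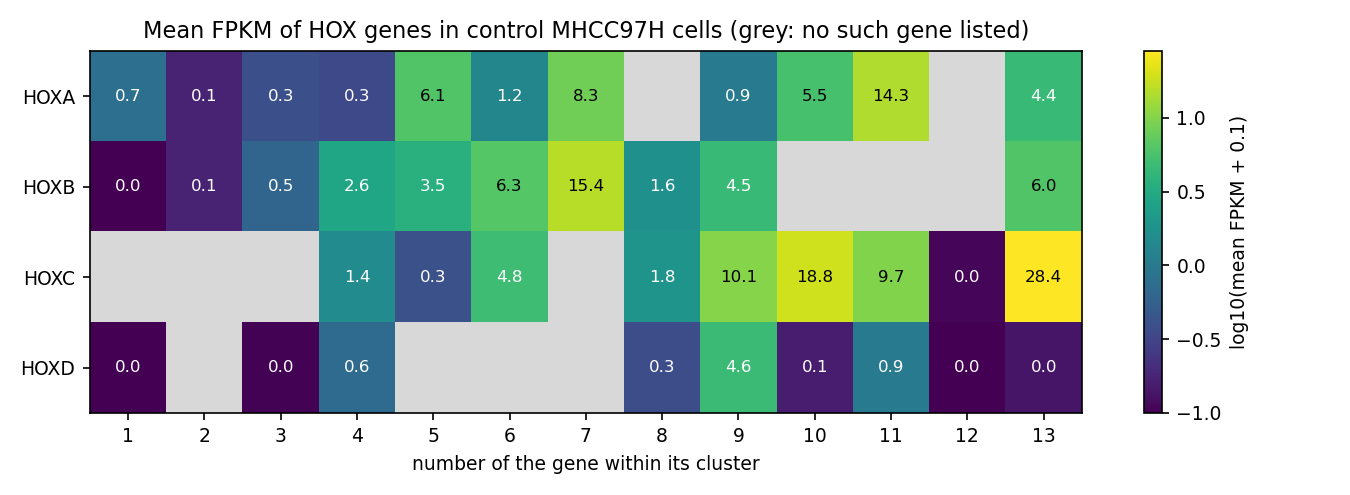
Mean FPKM over the 3 shCont libraries of each HOX gene, printed in its cell and coloured on a log10 scale, with clusters A to D as rows and the number within the cluster along the horizontal axis. On this deposited scale the highest values are HOXC13, HOXC10 and HOXB7, and the HOXD row is low except for HOXD9.

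Of 38 regulators of the cell cycle and of growth 28 (73.7%) were expressed. The proliferation factor MYBL2 had 57.4, 58.97 and 95.5 FPKM, the cyclin CCND1 63.7, 62.00 and 52.3 FPKM and E2F1 28.3, 28.6 and 39.2 FPKM. The inhibitors CDKN2A, CDKN1A, CDKN2C and CDKN1B were expressed as well, at means of 64.9, 33.0, 26.9 and 25.8 FPKM. The retinoblastoma gene RB1 had 5.48, 5.59 and 2.84 FPKM. HIF1A, the hypoxia factor that the study follows downstream of RPL6, had 19.4, 21.9 and 11.5 FPKM, its relative EPAS1 19.7, 19.8 and 15.8 FPKM, and SREBF2, the regulator of cholesterol synthesis, 18.8, 19.8 and 17.9 FPKM. MYC was uneven at 7.36, 0.754 and 2.03 FPKM, with replicate 1 highest and replicate 2 lowest.

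Cancer-testis genes, which are normally limited to germ cells, were expressed for 8 of 29 members (27.6%), beside 45.3% of all protein-coding genes. MAGEB2 had 58.9, 60.97 and 71.7 FPKM, PAGE1 30.6, 28.2 and 81.9 FPKM and MAGEA1 40.6, 38.97 and 42.1 FPKM. MAGEA6 and MAGEA3 are near-identical copies, as are the GAGE genes, and their separate levels of 27.2 and 17.1 FPKM on average are uncertain. MAGEA4, MAGEA10, MAGEA12, MAGEC1 and MAGEC2 had no count, so the listed levels differed within the MAGE family. CTAG1B, a cancer-testis gene outside that family, had no count either. Whether such zeros come from reads divided between similar copies was not tested.

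Of 29 antigen presentation and checkpoint genes 11 (37.9%) were expressed, but 13 lie in the chromosome 6 interval, where 6 of them had no count. The light chain B2M, which lies on another chromosome, was uneven at 51.1, 21.5 and 10.2 FPKM. The checkpoint ligands CD276, NECTIN2 and CD47 had means of 12.9, 10.6 and 6.01 FPKM, and CD274 (PD-L1) stood at 1.23, 0.863 and 0.746 FPKM.

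Markers of other liver cell types were at or near 0. Of 58 genes of stellate cells, endothelium, leukocytes and the blood, 4 (6.90%) were expressed, namely COL1A1, CDH5, CD68 and HBG2, and 38 (65.5%) were at 0.1 FPKM or less. The defining markers PECAM1, LYVE1, PTPRC, CD3E, DCN and LRAT had means of 0.0549 FPKM or less. COL1A1 had 6.23, 6.700 and 7.33 FPKM and CDH5, the cadherin of endothelium, 3.03, 2.37 and 3.44 FPKM, while KDR, ERG and EMCN of the same list had no count.

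The 3 libraries were not equally close. Across protein-coding genes, the correlation of log2(FPKM + 1) was 0.995 between replicates 1 and 2, 0.976 between 1 and 3 and 0.977 between 2 and 3 (Pearson, across genes, which are not independent replicates). Among the 9050 expressed genes, 83 differed by more than 2 times between replicates 1 and 2, against 869 between 1 and 3 and 750 between 2 and 3. Replicate 3 was the highest library for 40.7% of these genes and the lowest for 50.3%. The median ratio of the highest to the lowest library was 1.42, the median coefficient of variation 18.7%, and the common biological coefficient of variation estimated with edgeR 0.263. It was 0.128 without replicate 3, 0.303 without replicate 1 and 0.313 without replicate 2. Counts of every pair of libraries differed by more than sampling noise (9.22 to 58.6 chi-square units for each degree of freedom), so no library was a second deposit of another, which does not show that they came from separate cultures.

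Of protein-coding genes with a mean of 10 FPKM or more, the 10 least even had ratios of 5.21 to 22.4 between libraries. TOMM6, a subunit of the mitochondrial import pore, had 7.14, 19.7 and 160.2 FPKM. It lies inside the listed gene AL365205.1 on chromosome 6, whose counts moved the other way (2054, 1957 and 322, beside 110, 337 and 2732 for TOMM6), and both together held 2164, 2294 and 3054 counts, so the separate levels of this overlapping pair are uncertain. IFI6, an interferon-stimulated mitochondrial protein, had 55.5, 51.2 and 336 FPKM, highest in replicate 3. The immediate-early gene IER2 had 21.6, 21.6 and 1.67 FPKM and SRP9, a subunit of the signal recognition particle, 43.7, 15.3 and 7.13 FPKM, both lowest in replicate 3. ARHGAP23, at 3.97, 15.9 and 20.7 FPKM, was lowest in replicate 1, and PLAAT2, at 10.5, 6.53 and 39.7 FPKM, was highest in replicate 3. The others, AL365205.1, AL928654.3, AC138811.2 and AL035078.4, carry clone-based names and each overlap other protein-coding genes, so their levels are uncertain as well. The labels give no date or batch that would group these libraries, and whether culture, extraction or sequencing set replicate 3 apart was not tested.

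**Figure D5:**
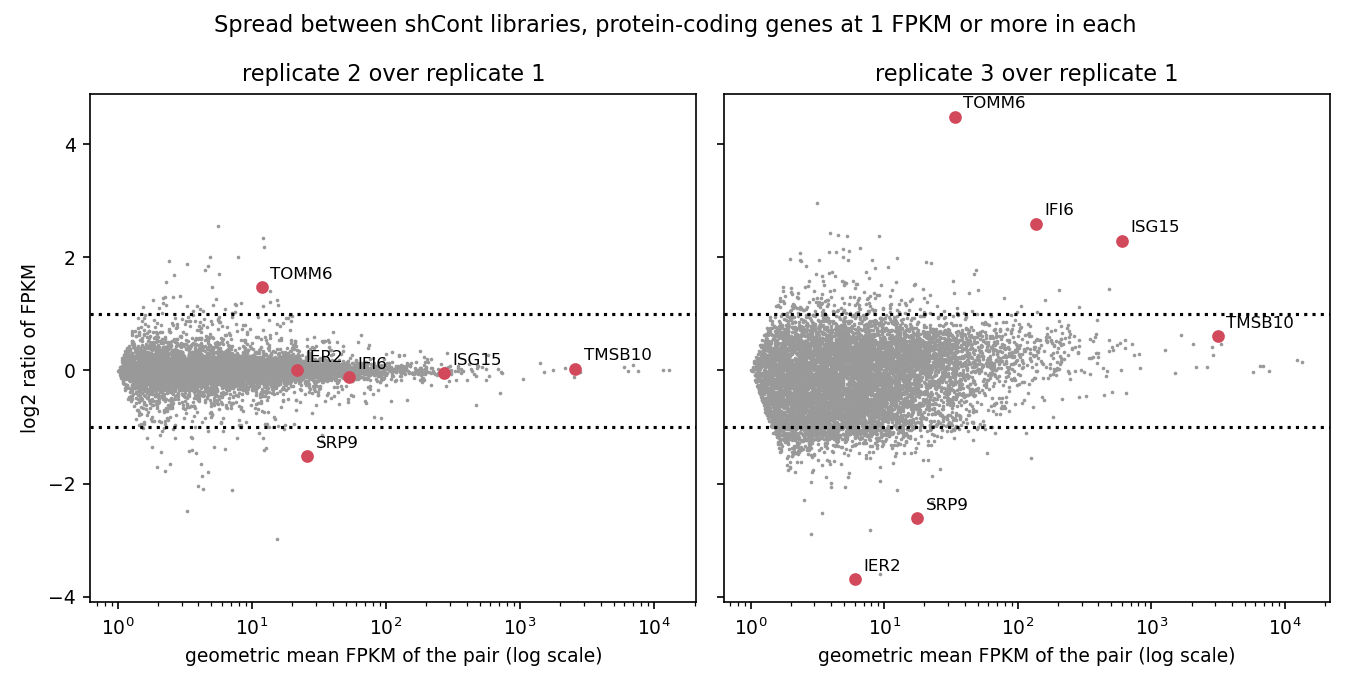
Log2 ratio of FPKM between shCont libraries (vertical) against the geometric mean FPKM of the pair (horizontal log axis) for protein-coding genes at 1 FPKM or more in every library, replicate 2 over 1 on the left and replicate 3 over 1 on the right, with dotted lines at a ratio of 2. The cloud is wider on the right, where 869 genes lie beyond the lines against 83 on the left, and ISG15, IFI6 and TOMM6, the last of which overlaps another gene, lie above it.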

How the data were processed

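Poly-A RNA was made into stranded paired-end Illumina libraries by the authors. The submitters' processing notes name CASAVA 1.8, HISAT2, StringTie, edgeR and build GRCh38. The annotation, counting program and strand setting were not named there or in the methods. Overlapping genes are therefore uncertain. The deposited table holds whole-number gene counts and FPKM. The authors' FPKM were proportional to the counts of a gene over the library total (0 of 13442 genes with at least 20 counts in every library deviated by 1% or more between libraries). The length in that FPKM counts overlapping exons more than once, as a comparison with GENCODE release 29 showed, and levels per merged exon length were computed beside it (73 protein-coding genes without a length there kept their FPKM). The columns headed NC were read as the shCont samples of the same replicate number. NC was the only control name among the headings, and shCont was the only control group. The headings of the other libraries begin with Si and do not name RPL6, and their 12 columns were not used. The table gives 33 symbols on more than 1 identifier, and each identifier was counted.

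The 3 libraries form 1 group, so levels are described with every library's value and no test was made. The spread was estimated with edgeR 4.0.16 in R 4.3.3 (intercept only, library totals, filterByExpr) and checked on simulated counts. Gene lists (31 lists, with 895 distinct genes found in the table) and the libraries were chosen with earlier results of these data known. Named genes are the 20 most abundant nuclear protein-coding genes, up to 8 highest members of each list with members at 0 counts in absent lists, and the 10 least even genes with a mean of at least 10 FPKM. Other genes were named after their values were seen, and some genes that the rule names are not reported here. Alternatives were minimums of 0.5 and 5 FPKM, TPM computed from the FPKM, a mean instead of every library, up to 3 counts as no count, other denominators for the share of abundant genes, TMM scaling, no filter on low counts, and leaving out each library. Totals ran from 13677400 to 15146181 counts per library.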

Additional observations from a re-analysis of the deposited data

How the results depend on the processing

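With a minimum of 5 FPKM in place of 1, 4226 protein-coding genes and 191 genes of the lists were expressed, against 9050 and 359, and the count moved by more than 1.5 times for 20 of 31 lists. At 0.5 FPKM, at 1 TPM or for the mean of the libraries, these 2 counts ran from 9762 to 11181 and from 388 to 443. At these settings 3, 3 and 1 of the 31 lists moved that far. Leaving out a library gave counts of 9134 to 9602 and 365 to 373, and 1 list moved that far without replicate 1. Leaving out the chromosome 6 interval, an alternative chosen after seeing the data, gave 354. Per merged exon length, also chosen after seeing the data, the counts were 10113 and 397, and 1 list moved by more than 1.5 times, the erythroid and platelet markers with 2 of 12 expressed. Genes with no count numbered 31795, with 33304 to 33474 when a library was left out and 39984 when up to 3 counts were allowed. The 10 most abundant genes took 7.02% of counts on average, 3.89% without mitochondrially encoded genes and 22.5% of summed FPKM, with 6.81% to 7.15% when a library was left out. The common biological coefficient of variation of 0.263 ranged from 0.128 to 0.313 when a library was left out, replicate 3 giving the lowest, and was 0.259 with TMM scaling and 0.285 without the filter. Low levels rest on few counts: 0 counts allow up to 0.219 CPM in the shallowest library, and levels below 0.1 FPKM are not ordered among themselves here. The ratios of CDH2 to CDH1 rest on such a level of CDH1 and are approximate. No paired analysis was possible because the 3 libraries form 1 group and no test was made.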

Other observations

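Of 34 interferon-stimulated genes, 24 were expressed, a list drawn up after its members ISG15 and IFI6 had been seen to differ between libraries, beside 45.3% of all protein-coding genes. BST2, which tethers budding viruses to the cell surface, had 196, 201 and 426 FPKM, OASL, of the oligoadenylate synthetase family, 25.9, 27.1 and 84.8 FPKM, and IFIT3 27.8, 27.7 and 25.7 FPKM. Of the 24, 14 were highest and 8 lowest in replicate 3, which was the highest library for 40.7% and the lowest for 50.3% of all expressed protein-coding genes. IFIT1 and IFIT2, at 6.66, 6.63 and 7.82 and 13.6, 12.7 and 11.9 FPKM, were nearly level, whereas IFI27 had 1.13, 1.06 and 8.77 FPKM and MX1 0.739, 0.672 and 3.32 FPKM. The list thus did not move as a block.

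Of 66 replication-dependent histone genes, whose messages normally end in a stem-loop without a poly-A tail, 33 were expressed, near the 45.3% of all protein-coding genes. H2BC12 had 514, 535 and 379 FPKM and H1-2 193, 203 and 194 FPKM, while H2BC5 had 16.8, 15.8 and 12.8 FPKM. Long noncoding RNAs took 0.975% ± 0.0331 of the counts (SD, n = 3) and 496 of 16887 were expressed. The small nucleolar RNA host gene SNHG6 led at 53.2, 49.8 and 62.8 FPKM and NORAD had 38.8, 40.8 and 24.8 FPKM. MALAT1 was listed at 12.1, 0.616 and 11.1 FPKM, with replicate 2 far below the others.

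FOLR1, the folate receptor of epithelial cells, ranked just below the 20 most abundant nuclear protein-coding genes by FPKM and among them per merged exon length, at 292, 289 and 795 FPKM. SFN, an epithelial cell-cycle regulator, had 251, 242 and 313 FPKM, the secreted protease inhibitor SLPI 234, 226 and 311 FPKM and PTGES, which makes prostaglandin E, 181, 186 and 306 FPKM. The cholesterol synthesis enzyme HMGCS1 had 20.5, 21.2 and 9.45 FPKM, lowest in replicate 3. All genes of this section were chosen after their values were seen.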
